A study of Homo sapiens with 40 samples.

Results

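The integrated stress response mRNAs described here were 9 transcripts, ATF4, DDIT3, TRIB3, PPP1R15A, ASNS, PSAT1, CHAC1, SESN2 and DDIT4, chosen by gene symbol from the 55765 symbols of each count table. All 9 were found in each of the 40 RNA-Seq libraries and all 9 passed the filter on low counts in every comparison. The study asked how the DEAD-box helicases eIF4A1 and eIF4A2 and the CCR4-NOT scaffold CNOT1 act on mRNA translation, using HEK293 cells, an established human embryonic kidney line. In RIP-Seq, 3 libraries each were made from the RNA bound by endogenous eIF4A1, by endogenous eIF4A2 and by endogenous DDX6, and from the total RNA of the same experiment, all from cells given no siRNA. For polysome profiling on sucrose gradients, cells were given either control siRNA or CNOT1 siRNA, and 4 libraries each came from the gradient input, from the pooled subpolysomal fractions 1-5 and from the pooled polysomal fractions 6-11. In a separate experiment, total RNA of cells given control siRNA was compared with that of cells given siRNAs against TNRC6A and TNRC6B together, with 2 libraries each. No group received an agent that triggers the stress response, and the knockdowns were transient in 1 cell line.

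When eIF2 is phosphorylated by one of its kinases, most initiation falls while mRNAs with suitable upstream open reading frames (uORFs) in the 5′UTR, ATF4 above all, are translated better. ATF4, a bZIP transcription factor, then raises transcription of genes for amino acid supply, redox control and, through DDIT3 (CHOP), cell death. CNOT1 is the scaffold of CCR4-NOT, the main cytoplasmic deadenylase complex, and DDX6 is a helicase that binds it. Among the members, TRIB3 is a pseudokinase that restrains ATF4 and AKT signalling, PPP1R15A (GADD34) brings a phosphatase to eIF2, ASNS makes asparagine and PSAT1 acts in serine synthesis. CHAC1 degrades glutathione, and SESN2 and DDIT4 (REDD1) hold back mTORC1.

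The uORF sequences are printed first because translational control in this pathway is known to run through them. They were read from the GRCh37 (hg19) genome in 1 coding transcript per gene of the GENCODE release 44 annotation, 5′ to 3′ along the mRNA, with 10 bases on each side of the upstream AUG in lower case and the AUG, written ATG, in capitals. ATF4 (chr22:39915700-39918688, plus strand) held 3, DDIT3 (chr12:57910371-57915520, minus strand) held 3, PPP1R15A (chr19:49375469-49379316, plus strand) held 2, TRIB3 (chr20:343479-378203, plus strand) held 2 and SESN2 (chr1:28586029-28609002, plus strand) held 1. The third window of ATF4 and the third of DDIT3 cross an exon junction, so they are printed as spliced.
ATF4 uORF 1, chr22:39916581-39916603: ccgcccacagATGtagttttctc
ATF4 uORF 2, chr22:39916643-39916665: cacggccaccATGgcgtattagg
ATF4 uORF 3, chr22:39916742-39917366: ggcttaagccATGgcgcttctca
DDIT3 uORF 1, chr12:57914251-57914273: tgagcgtatcATGttaaagatga
DDIT3 uORF 2, chr12:57914242-57914264: catgttaaagATGagcgggtggc
DDIT3 uORF 3, chr12:57911209-57911498: ctgaaagcagATGtgcttttcca
PPP1R15A uORF 1, chr19:49375702-49375724: tgttgatcttATGcaagacgctg
PPP1R15A uORF 2, chr19:49375801-49375823: tgagggtgagATGaacgcgctgg
TRIB3 uORF 1, chr20:361439-361461: ggtgcagcggATGcagaggagag
TRIB3 uORF 2, chr20:361474-361496: ggcgcgggggATGgtgcgatccc
SESN2 uORF 1, chr1:28586040-28586062: cgcggcggggATGctgaggagcg

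ATF4 uORF 1 is 1 codon long and uORF 2 is 3 codons long. ATF4 uORF 3 starts 97 nt before the main start codon, is 59 codons long in all and ends inside the coding sequence. DDIT3 uORF 3 starts 32 nt before the main start codon, is 73 codons long in all and likewise ends inside the coding sequence. The first 2 uORFs of DDIT3, of 34 and 31 codons, lie in a single reading frame and share a stop. No upstream AUG was found in the annotated 5′UTR of ASNS (chr7:97480989-97501854, minus strand), PSAT1 (chr9:80912041-80945009, plus strand), CHAC1 (chr15:41245160-41248710, plus strand) or DDIT4 (chr10:74033678-74035794, plus strand). Of 12452 coding genes examined in the same way, 57.5% had none, 22.7% had 2 or more and 13.1% had a uORF that overlaps the coding sequence. The 5′UTRs of the members ran from 86 nt in PSAT1 to 410 nt in TRIB3, beside a median of 147 nt over those genes, and their GC content ran from 47.5% in DDIT3 to 74.4% in TRIB3, beside a median of 67.2%.

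Promoters were searched from 500 bases before to 100 after the annotated start for TGATGNAA, the core of the CCAAT-enhancer binding protein-ATF response element that ATF4 heterodimers recognise, on both strands and with no other motif searched. It was present in 4 of the 9 members and in 3.73% of the 12452 promoters. The matches are printed along the strand of the gene with the motif letters in capitals, and 3 of the 4 carry it in the reverse orientation.
SESN2, chr1:28585723-28585750: tgaagtccctTTTCATCAcgcaacccta
DDIT3, chr12:57914586-57914613: ttgccaaacaTTGCATCAtccccgcccc
CHAC1, chr15:41245450-41245477: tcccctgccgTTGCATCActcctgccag
ASNS, chr7:97501771-97501798: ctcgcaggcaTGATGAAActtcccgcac
These matches begin 296, 306, 209 and 68 bases upstream of the start in SESN2, DDIT3, CHAC1 and ASNS, respectively. They are a description of the letters in this window and were not tested as binding sites.

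The libraries held 15353317 to 46018900 counts. Levels are given in CPM, the usual measure of counts brought to a common library total, here after scaling by the trimmed mean of M-values (TMM) separately within the RIP, gradient and TNRC6 experiments. They are thus relative levels within an experiment, neither plain shares of each library nor amounts per cell. In these bulk samples fewer transcript-bearing cells and less RNA per cell cannot be told apart. Marker levels are CPM of the raw library total, since they run across the experiments. Of the neuronal filament mRNAs known from HEK293 cells, NEFM was at 222 to 5647 CPM and NEFL at 74.6 to 1340 CPM, but INA was at only 2.23 to 12.8 CPM, and the renal marker PAX2 stayed at 0.111 to 1.59 CPM and PTPRC, ALB, CDH17 and VIL1 never passed 0.813 CPM. Among the markers of other cell types, CDX2, at 6.86 to 33.4 CPM, and COL1A1, at 1.29 to 19.9 CPM, were above that level in every library. Of the other mRNAs listed for HEK293 cells, VIM was at 118.5 to 653.8 CPM. KRT8, at 2.99 to 10.2 CPM, and KRT18, at 3.08 to 49.3 CPM, overlapped the ranges of CDX2 and COL1A1. CNOT1 itself was at 628 to 711 CPM in the control siRNA input and 36.8 to 41.4 CPM in the CNOT1 siRNA input, and at 235 to 317 and 73.5 to 89.6 CPM in the subpolysomal libraries. In the polysomal libraries it stood against the labels in replicate 3 of both groups. Under the control siRNA label it was at 28.3 CPM there, against 470 to 501 CPM in the rest of the group, and under the CNOT1 siRNA label at 631 CPM, against 24 to 31.7 CPM in the rest. The labels were kept, these libraries are called the polysomal libraries labelled 3, and each result that rests on them is given with and without both. No label says that replicates came from separate cultures, so p-values measure only the spread between these libraries.

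Per kilobase of merged exons, ATF4 had the highest level of the 9 mRNAs in the control siRNA input, at 140 ± 12.8 CPM per kb (SD, n = 4). PSAT1 followed at 74.6 ± 13.0, ASNS at 27.4 ± 6.23 and SESN2 at 15.9 ± 1.98 CPM per kb. PPP1R15A at 10 ± 1.36 and DDIT4 at 9.34 ± 1.56 CPM per kb did not differ beyond their spread. The lowest were DDIT3 at 3.79 ± 0.61, TRIB3 at 2.13 ± 0.29 and CHAC1 at 0.56 ± 0.41 CPM per kb. ATF4 and PSAT1 also led in the RIP total RNA, at 208 and 103 CPM per kb, but there DDIT4, at 30.7, stood beside ASNS at 29.7 and above SESN2 at 23.4 CPM per kb. Merged exons of ASNS cover 4896 nt, while its transcript used for the uORFs has a 5′UTR of 117, a coding sequence of 1683 and a 3′UTR of 585 nt. The order of mRNAs at close values per kb thus depends on the length used. In CPM, DDIT4 was at 57.6 to 68.9 in the RIP total RNA and 16.5 to 23.8 in the control siRNA input, and CHAC1 was at 3.19 to 6.11 and 0.66 to 2.40. These come from separate experiments that also differ in transfection, and the difference was not tested. Exons of DDIT3 overlap those of MARS1 and MBD6 on the other strand and of an unnamed gene on its own strand, and ASNS also overlaps an unnamed gene on its own strand. Because the strand setting of the counting is not given in the sources used here, reads of these overlaps may have been split.

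In the gradient input, which shows the relative level of each mRNA before fractionation, 5 of the 9 mRNAs were higher after CNOT1 siRNA and the level of ATF4 mRNA itself was not called changed. Whether CNOT1 loss altered how well mRNAs were captured in the mRNA libraries was not tested. The called mRNAs were CHAC1, TRIB3, DDIT3, SESN2 and DDIT4, with log2 fold changes of 0.81 to 2.73. ASNS, PSAT1, PPP1R15A and ATF4 did not pass the false discovery rate (FDR) of 0.05 from the edgeR quasi-likelihood test over 16776 genes. Among all genes tested, 13.4% were called higher and 15.6% lower in this comparison. The share of all genes whose groups did not overlap is not given, here or in the comparisons below. The median log2 fold change was 0.81 over the members and -0.03 over all genes.

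CHAC1 was at 0.74, 0.66, 2.40 and 0.82 CPM in control siRNA inputs 1 to 4 and at 4.48, 2.75, 15.8 and 7.70 CPM in CNOT1 siRNA inputs 1 to 4. The groups did not overlap, although replicate 3 was the highest of each. The log2 fold change was 2.73 ± 0.81 (SE, n = 4, edgeR FDR = 0.0172). TRIB3 was at 5.91, 7.18, 8.24 and 6.77 CPM in the control libraries and at 12.7, 12.3, 27.3 and 18.7 CPM after CNOT1 siRNA. All 4 knockdown values lay above the highest control, and the log2 fold change was 1.34 ± 0.38 (SE, n = 4, edgeR FDR = 0.0147). SESN2 was at 49.1, 51.8, 64.7 and 54.0 CPM against 80.6, 85.1, 122.7 and 104 CPM, again with no overlap. Its log2 fold change of 0.84 ± 0.26 (SE, n = 4, edgeR FDR = 0.02) was close to that of DDIT4. DDIT4 was at 17.6, 19.0, 23.8 and 16.5 CPM against 25.7, 25.6, 50.6 and 32.4 CPM, without overlap, and its log2 fold change was 0.81 ± 0.29 (SE, n = 4, edgeR FDR = 0.0402).

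DDIT3 was at 4.44, 4.13, 5.39 and 5.84 CPM in the control siRNA inputs and at 8.50, 5.58, 14.5 and 8.4 CPM in the CNOT1 siRNA inputs. The groups overlapped slightly, since the second knockdown library lay under the fourth control library. DDIT3 was nonetheless higher in 4 of 4 pairs of the same replicate number, and its log2 fold change was 0.90 ± 0.33 (SE, n = 4, edgeR FDR = 0.0424). This call was held in 1 of 8 fits that left out 1 input library, and the value fell to 0.59 (edgeR FDR = 0.195) without CNOT1 siRNA input replicate 3.

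ATF4, whose product drives the transcription of the others, was at 341, 341, 373 and 411 CPM against 239, 225, 385 and 329 CPM. The knockdown libraries spread on both sides of the lowest controls, and the log2 fold change of -0.31 (95% interval -0.66 to 0.03, edgeR FDR = 0.154) was not called. PPP1R15A had 32.3, 32.5, 31.2 and 41.3 CPM against 33.8, 27.8, 52.9 and 45.9 CPM. Its groups overlapped throughout, with a log2 fold change of 0.22 (95% interval -0.20 to 0.65, edgeR FDR = 0.415). The enzymes of amino acid synthesis did not follow TRIB3 and CHAC1: ASNS spanned 112 to 177 CPM against 91.4 to 170.1 CPM and PSAT1 spanned 139 to 205 CPM against 120 to 161 CPM. Their log2 fold changes were -0.06 for ASNS (95% interval -0.52 to 0.39, edgeR FDR = 0.845) and -0.22 for PSAT1 (95% interval -0.56 to 0.11, edgeR FDR = 0.301).

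**Figure D1:**
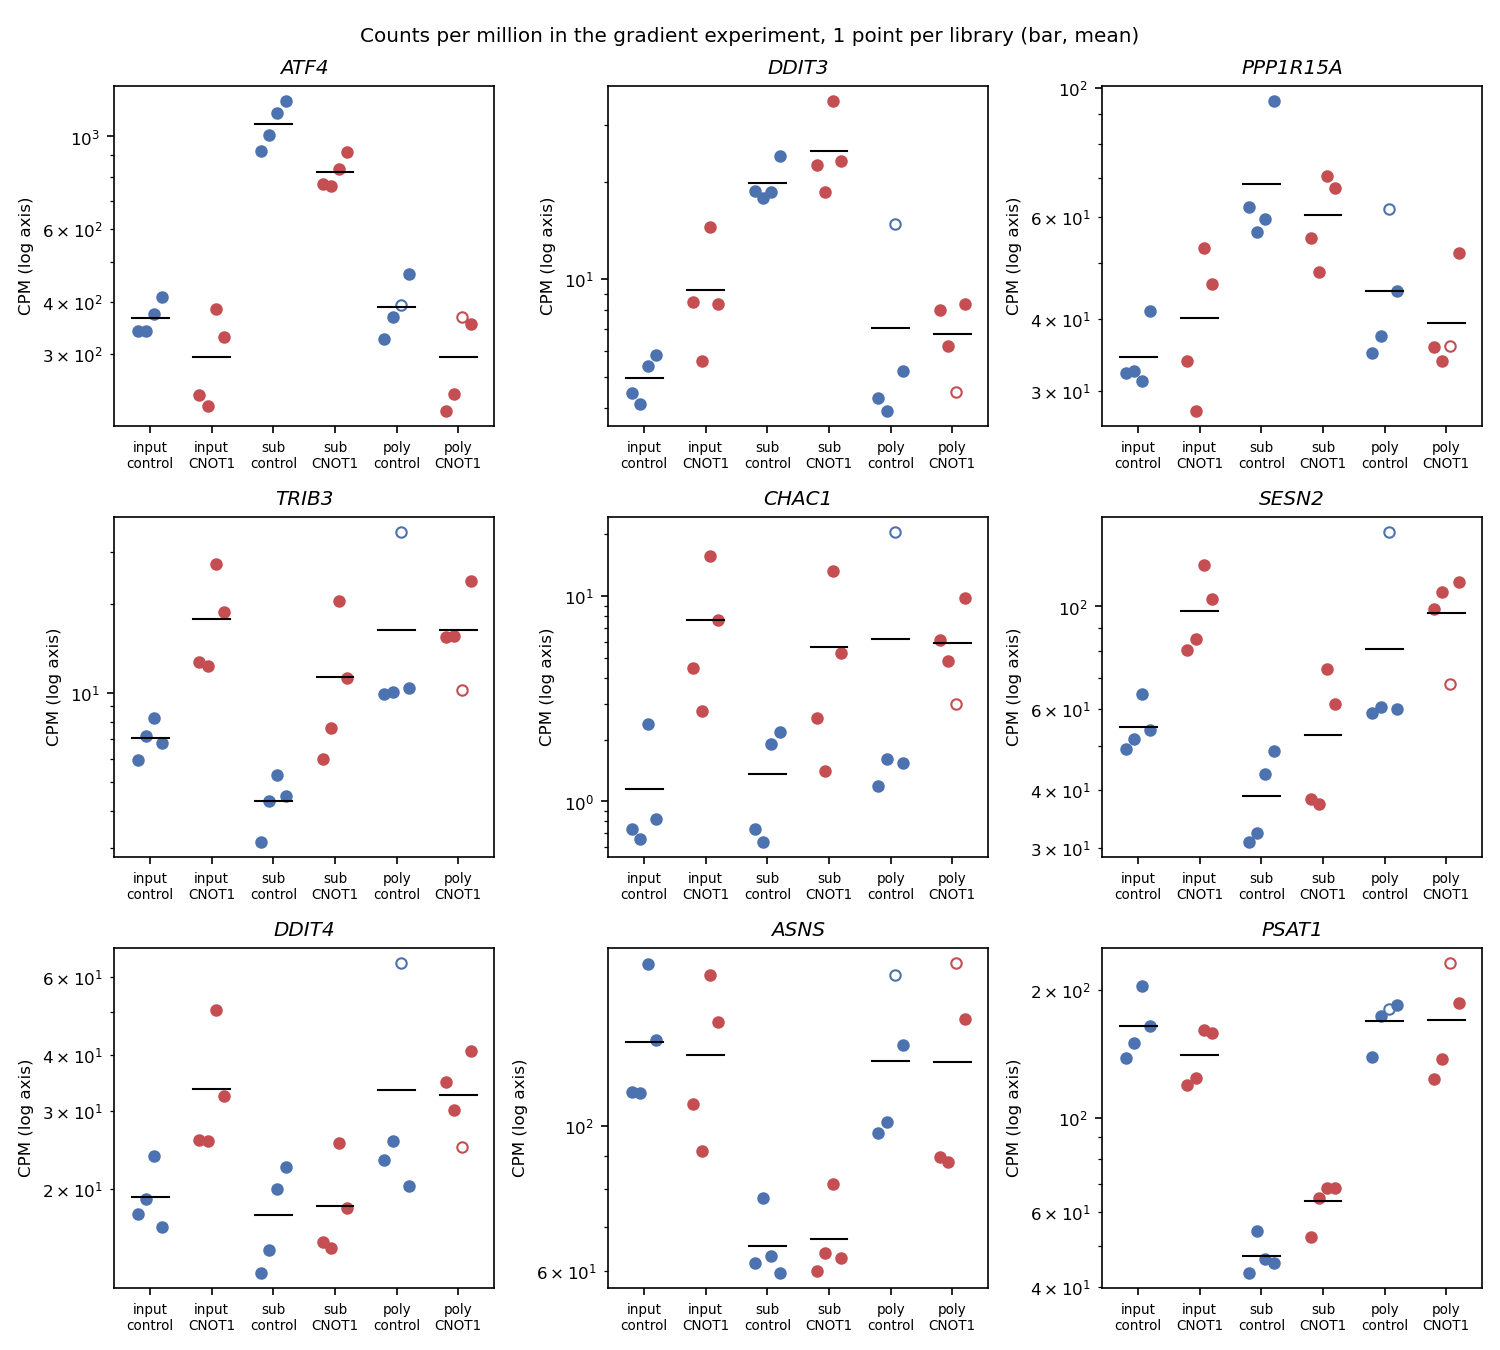
CPM of the 9 mRNAs on log axes in each gradient library, by input, subpolysomal and polysomal RNA, with control siRNA in blue, CNOT1 siRNA in red, group means as bars and the polysomal libraries labelled 3 as open symbols. TRIB3, CHAC1, SESN2 and DDIT4 show no overlap between the groups in the input, and the open control symbols of DDIT3, TRIB3, CHAC1, SESN2 and DDIT4 lie above every CNOT1 siRNA symbol in the polysomal RNA. The share of all genes without overlap in the input is not given here.

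These input calls depended on single libraries when the whole gradient experiment shared 1 estimate of the spread: 0 members were called without CNOT1 siRNA input replicate 3, 1 without control siRNA input replicate 2, 2 without control siRNA input replicate 1, and 3 without replicate 4 of either group. Of the 8 fits, TRIB3 was called in 7, CHAC1 in 6, SESN2 in 5, DDIT4 in 3 and DDIT3 in 1. The share of all genes called in these 8 fits is not given here, so losses among the members cannot be told apart from losses over all genes. With both polysomal libraries labelled 3 out of that shared estimate, the same 5 were called at edgeR FDRs of 0.00079 for TRIB3, 0.000853 for SESN2, 0.000951 for CHAC1, 0.00292 for DDIT3 and 0.0038 for DDIT4, beside 19.6% of genes called higher and 21.1% lower, and they stayed called in 8 of 8 fits that further left out 1 input library. Same-numbered input libraries deviated together, and with the replicate number as a block 6 members were called, beside 31.8% of genes, with ATF4 added at a log2 fold change of -0.34 (edgeR FDR = 0.0235).

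In the subpolysomal RNA, which holds free mRNPs, ribosomal subunits and monosomes, TRIB3 was the only member called after CNOT1 siRNA, beside 13.0% of genes called higher and 19.1% called lower. TRIB3 was at 3.14, 4.31, 5.29 and 4.48 CPM in the control libraries and at 5.96, 7.61, 20.4 and 11.2 CPM after CNOT1 siRNA. All knockdown values exceeded all control values, with a log2 fold change of 1.39 ± 0.40 (SE, n = 4, edgeR FDR = 0.0112). Without CNOT1 siRNA subpolysomal replicate 3 this value was 0.94 (edgeR FDR = 0.0788) and 0 members were called, while 2 were called without control siRNA subpolysomal replicate 2 or without CNOT1 siRNA subpolysomal replicate 1 or 2. The share of all genes called in those fits is not given here. CHAC1 was at 0.74, 0.64, 1.91 and 2.18 CPM against 2.55, 1.41, 13.3 and 5.32 CPM, with overlap at the second knockdown library, and its log2 fold change of 2.07 missed the threshold (edgeR FDR = 0.065). SESN2 at 0.44 (edgeR FDR = 0.2), DDIT3 at 0.33 (edgeR FDR = 0.442), PPP1R15A at -0.18 (edgeR FDR = 0.535), DDIT4 at 0.07 (edgeR FDR = 0.88) and ASNS at 0.03 (edgeR FDR = 0.927) were not called.

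ATF4 was at a higher level in these libraries than in the input libraries, at 924, 1006, 1141 and 1214 CPM in control siRNA and 768, 761, 833 and 918 CPM in CNOT1 siRNA. The groups did not overlap in these scaled values, and the log2 fold change of -0.39 missed the threshold (edgeR FDR = 0.0805). As plain shares of the library total they did overlap. CNOT1 siRNA replicate 3 held 16529 ATF4 counts of 15914206, a larger share than the 22153 of 24001172 in control siRNA replicate 2. PSAT1 showed the opposite sign, at 43.2, 54.3, 46.6 and 45.6 CPM against 52.4, 65.0, 68.6 and 68.5 CPM, with a log2 fold change of 0.42 (edgeR FDR = 0.0526). Same-numbered subpolysomal libraries deviated together, and with the replicate block 4 members were called, beside 34.5% of genes: TRIB3 at 1.28 (edgeR FDR = 0.0042), ATF4 at -0.38 (edgeR FDR = 0.00997), PSAT1 at 0.41 (edgeR FDR = 0.0108) and CHAC1 at 1.79 (edgeR FDR = 0.0224). With both polysomal libraries labelled 3 left out of the shared estimate, TRIB3 (edgeR FDR = 0.00102), CHAC1 (edgeR FDR = 0.0125) and PSAT1 (edgeR FDR = 0.0212) were called, beside 17.7% of genes called higher and 24.3% lower, and of 8 fits that left out 1 further library CHAC1 was called in 7 and PSAT1 in 5.

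In the polysomal RNA the outcome turned on the libraries labelled 3. With the labels kept, 0 of the 9 mRNAs and 0.0% of genes were called by edgeR after CNOT1 siRNA, 1 member and 1123 genes had an unadjusted p under 0.05, and DESeq2 called 0 members. The log2 fold changes then ran from -0.40 for ATF4 to 0.26 for SESN2. Without both libraries, 4 mRNAs passed the threshold, beside 17.1% of genes called higher and 14.6% lower: CHAC1, SESN2 and DDIT3 were higher and ATF4 was lower.

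SESN2 was at 59.0, 60.7 and 59.9 CPM in control siRNA polysomal libraries 1, 2 and 4 and at 98.6, 107.6 and 113.0 CPM in those of CNOT1 siRNA. These groups were well separated, with a log2 fold change of 0.83 ± 0.21 (SE, n = 3, edgeR FDR = 0.00413), while the libraries labelled 3 held 144.6 CPM under the control label and 68.1 CPM under the CNOT1 label. CHAC1 was at 1.20, 1.61 and 1.55 CPM against 6.10, 4.85 and 9.83 CPM, a log2 fold change of 2.26 ± 0.71 (SE, n = 3, edgeR FDR = 0.0174). Its libraries labelled 3 held 20.5 CPM under the control label, the highest CHAC1 value of all 40 libraries, and 2.98 CPM under the CNOT1 label. DDIT3 was at 4.28, 3.92 and 5.20 CPM against 8.06, 6.20 and 8.39 CPM, without overlap, with a log2 fold change of 0.76 ± 0.27 (SE, n = 3, edgeR FDR = 0.0376) and with 14.8 and 4.47 CPM in the libraries labelled 3 of control and CNOT1 siRNA.

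ATF4 was at 326, 368 and 467 CPM in the 3 control polysomal libraries not labelled 3 and at 219, 240.4 and 353 CPM in the matching CNOT1 siRNA libraries. Each knockdown library lay under the control of its number, although polysomal numbers were not taken to pair. The groups overlapped, and the log2 fold change was -0.51 ± 0.18 (SE, n = 3, edgeR FDR = 0.0367). TRIB3, at 9.96, 10.1 and 10.4 CPM against 15.5, 15.5 and 23.9 CPM, did not overlap but missed the threshold with a log2 fold change of 0.85 (edgeR FDR = 0.0522). DDIT4, at 23.3, 25.7 and 20.3 CPM against 34.8, 30.1 and 40.8 CPM, did likewise with 0.61 (edgeR FDR = 0.0583). PPP1R15A, PSAT1 and ASNS had log2 fold changes of 0.05, -0.15 and -0.04. When 1 further polysomal library was left out, SESN2 was called in 6 of 6 fits, CHAC1 in 4 of 6, and ATF4 and DDIT3 in 2 of 6 each. The count of members called was then 2 without replicate 1 of either group, without control siRNA replicate 2 or without CNOT1 siRNA replicate 4, and 3 without the other libraries. The share of all genes called in these fits is not given here, so such losses may not be particular to the members.

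**Figure D2:**
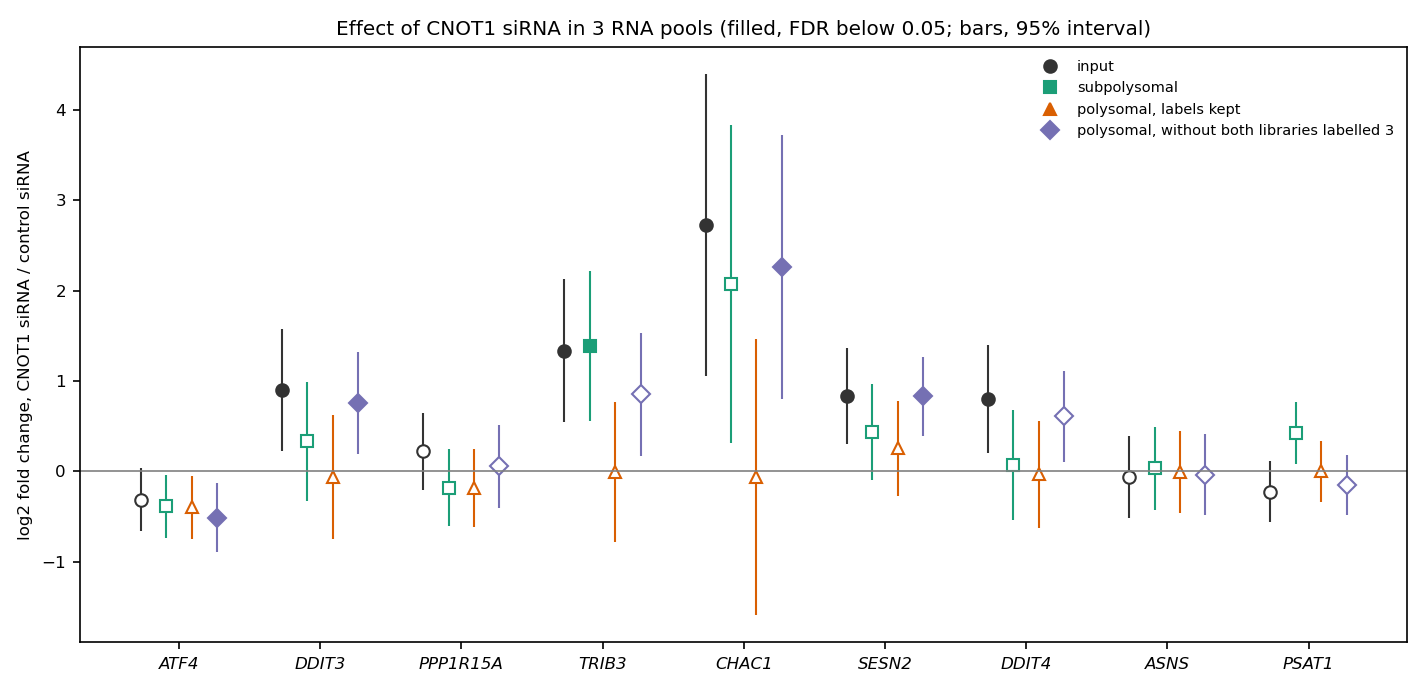
Log2 fold change of CNOT1 siRNA over control siRNA (y axis, with 95% intervals) for each mRNA in the input, the subpolysomal RNA and the polysomal RNA with the labels kept and without both libraries labelled 3. Filled symbols mark an edgeR FDR under 0.05; the 5 filled input symbols run from 0.81 for DDIT4 to 2.73 for CHAC1, and no polysomal symbol is filled while the labels are kept.

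Whether the effect of CNOT1 siRNA differed between the polysomal and the subpolysomal RNA was tested as an interaction in the same fit. With the labels kept, 0 members were called by edgeR beside 5.66% of genes, and 1 member had an unadjusted p under 0.05. The share of all genes at that unadjusted cutoff is not given here, with or without the libraries labelled 3. The differences of log2 fold change were -2.13 for CHAC1 (95% interval -4.47 to 0.20), -1.39 for TRIB3, -0.42 for PSAT1, -0.39 for DDIT3, -0.18 for SESN2 and -0.10 for DDIT4, and those of ASNS, ATF4 and PPP1R15A were nearer to 0. CHAC1 (edgeR FDR = 0.004) and TRIB3 (edgeR FDR = 0.00143) were called when genes with low counts were not filtered, beside 2.59% of genes. Without both libraries labelled 3, 0 members were called beside 17.5% of genes, again with 1 member at an unadjusted p under 0.05. DDIT4 at 0.54, DDIT3 at 0.42, SESN2 at 0.39, PPP1R15A at 0.23 and CHAC1 at 0.19 were then above 0, and ATF4 at -0.13, TRIB3 at -0.54 and ASNS at -0.07 below it. The lowest was PSAT1 at -0.58 (edgeR FDR = 0.0709), from log2 fold changes of 0.43 in subpolysomal and -0.15 in polysomal RNA. PSAT1 was called in 4 of 14 fits that left out 1 further library, those without control siRNA subpolysomal replicate 2, CNOT1 siRNA subpolysomal replicate 1, control siRNA polysomal replicate 1 or CNOT1 siRNA polysomal replicate 4, at a value of down to -0.77 (edgeR FDR = 0.0179).

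The mRNAs differed in their distribution over the control gradient, which reads how far each is loaded with ribosomes. Ratios per gradient below join libraries by replicate number, although these numbers were not taken to pair the fractions. The mRNAs of ATF4, DDIT3 and PPP1R15A were lower in polysomal than in subpolysomal RNA, and PSAT1, ASNS, TRIB3 and SESN2 were higher. With the labels kept all 9 were called, 6 higher and 3 lower, beside 34.8% of genes called higher and 37.0% lower. Without both libraries labelled 3, 7 were called, 4 higher and 3 lower, beside 33.7% and 38.4%. An upstream AUG was present in ATF4, DDIT3 and PPP1R15A, and also in SESN2 and TRIB3, which lay on the polysomal side. Whether uORFs or other features of the mRNAs bear on this distribution was not tested.

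DDIT3 had 18.7, 17.8 and 24 CPM in the subpolysomal control libraries 1, 2 and 4 and 4.28, 3.92 and 5.20 CPM in the matching polysomal libraries. Its log2 ratio in these gradients was -2.01, -2.05 and -2.11, a fitted change of -2.13 (edgeR FDR = 1.47e-07), while the control gradient labelled 3 gave -0.32 and the fitted change with the labels kept was -1.48 (edgeR FDR = 0.000319). ATF4 gave log2 ratios of -1.50, -1.45, -1.53 and -1.38 in control gradients 1 to 4, with a fitted change of -1.46 with the labels kept (edgeR FDR = 4.43e-08) and without both libraries labelled 3 (edgeR FDR = 1.6e-07). All 4 control gradients, the one labelled 3 included, thus gave a like ratio. PPP1R15A gave -0.83, -0.59, 0.05 and -1.07 and a fitted change of -0.61 (edgeR FDR = 0.0113), which was -0.41 (edgeR FDR = 0.0859) without control siRNA subpolysomal replicate 4 and -0.79 (edgeR FDR = 0.0018) without both libraries labelled 3.

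PSAT1 stood at the other end, at 43.2 to 54.3 CPM in subpolysomal and 139 to 184 CPM in polysomal control RNA, with no overlap. Its fitted log2 change was 1.84 (edgeR FDR = 7.58e-10) and 1.82 without both libraries labelled 3. TRIB3 had log2 ratios of 1.52, 1.14, 2.61 and 1.12, with 1.26 (edgeR FDR = 0.00153) as the fitted change without both and 1.93 with the labels kept. ASNS changed by 0.94 (edgeR FDR = 0.000614) with the labels kept and by 0.77 (edgeR FDR = 0.00173) without both, and SESN2 by 1.06 (edgeR FDR = 0.000804) and 0.64 (edgeR FDR = 0.00567). The calls of CHAC1 and DDIT4 rested on the library labelled control siRNA polysomal replicate 3: their changes were 2.24 and 0.94 with it, and 0.16 (edgeR FDR = 0.862) and 0.42 (edgeR FDR = 0.117) without it alone. CHAC1 was at 0.64 to 2.18 CPM in the other control siRNA fractions, and its call was also lost without control siRNA subpolysomal replicate 1, at 2.02 (edgeR FDR = 0.0605), and without replicate 2, at 2.01 (edgeR FDR = 0.0602).

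After CNOT1 siRNA the 7 mRNAs called in control siRNA without both libraries labelled 3 had the same directions. Again without both, 8 members were called, beside 36.0% of genes called higher in polysomal RNA and 35.9% lower: DDIT3 at -1.71, ATF4 at -1.59 and PPP1R15A at -0.56 were lower, and PSAT1 at 1.24, SESN2 at 1.03, DDIT4 at 0.96, TRIB3 at 0.72 and ASNS at 0.70 were higher. CHAC1, at 0.35 (edgeR FDR = 0.603), was the exception, and of fits that left out 1 further library the TRIB3 call held in 3 of 7, that of PPP1R15A in 4 of 7 and that of ASNS in 6 of 7. With the labels kept, 7 were called, beside 34.1% and 34.7%: DDIT3 at -1.87, ATF4 at -1.47, PPP1R15A at -0.61, PSAT1 at 1.42, ASNS at 0.90, SESN2 at 0.88 and DDIT4 at 0.83. TRIB3 at 0.54 (edgeR FDR = 0.211) and CHAC1 at 0.11 (edgeR FDR = 0.908) were not called. In the CNOT1 gradient labelled 3 the log2 ratios of TRIB3 and CHAC1 were -0.96 and -1.99, opposite to those of CNOT1 gradients 1, 2 and 4, at 0.98 to 1.30 and 0.83 to 1.48. The 2 distributions are read from the same libraries as the knockdown comparisons and are not independent of them.

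**Figure D3:**
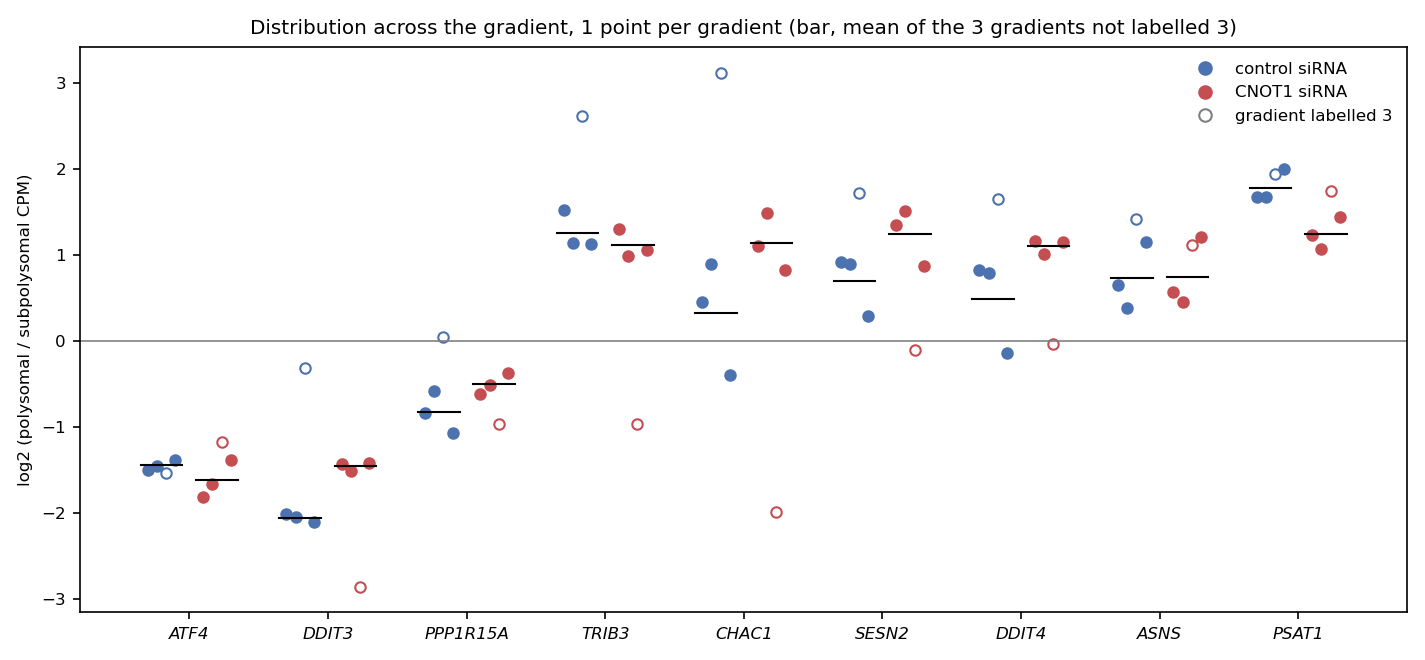
Log2 ratio of polysomal to subpolysomal CPM (0.5 CPM added to each) for every gradient, control siRNA in blue and CNOT1 siRNA in red, gradients labelled 3 as open symbols and the mean of the others as a bar. Gradients are matched by replicate number, which was not taken to pair these libraries. ATF4 and DDIT3 lie below 0 in every gradient, PSAT1 lies above 1 in every gradient, and the open symbols of TRIB3 and CHAC1 stand far from the filled ones.

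The RIP-Seq compared the RNA recovered with each protein with total RNA. The libraries include no IgG IP, so binding cannot be told apart from non-specific recovery, and RNA called bound is RNA recovered with the protein. ATF4 and PPP1R15A mRNAs were higher in the RNA bound by each of the 3 proteins than in total RNA, and PSAT1 was lower with each. DDIT3 and TRIB3 were higher and ASNS was lower with eIF4A1 and with DDX6. With all libraries and no block, SESN2, DDIT4 and CHAC1 were not called with any of the 3. The 3 comparisons share the total RNA libraries, so their signs are not independent of each other.

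ATF4 was at 563, 541 and 525 CPM in total RNA and at 1443, 1817 and 1377 CPM in eIF4A1-bound RNA. All bound libraries lay above all total libraries, with a log2 fold change of 1.51 ± 0.20 (SE, n = 3, edgeR FDR = 5.32e-05). DDX6-bound RNA held 1379.8, 1761 and 1280.0 CPM and changed by 1.44 ± 0.20 (SE, n = 3, edgeR FDR = 0.000122). eIF4A2-bound RNA held 906, 1176 and 701 CPM, a log2 fold change of 0.77 ± 0.20 (SE, n = 3, edgeR FDR = 0.00582), with the third library nearest to total RNA. PPP1R15A was at 27.4 to 31.6 CPM in total RNA and at 56.4 to 66.3, 32.5 to 61.4 and 49.9 to 61.1 CPM in eIF4A1-, eIF4A2- and DDX6-bound RNA. Its log2 fold changes were 1.09, 0.80 and 0.95 at edgeR FDRs of 0.000573, 0.00454 and 0.00186.

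With eIF4A1, 6 members were called, 4 higher and 2 lower, beside 26.1% of genes called higher and 26.5% lower. DDIT3, at 7.26 to 7.97 CPM in total and 10.1 to 17.1 CPM in eIF4A1-bound RNA, changed by 0.80 (edgeR FDR = 0.0132) and TRIB3, at 9.48 to 14.6 and 16.4 to 23.8 CPM, by 0.71 (edgeR FDR = 0.00993). Both calls were lost without eIF4A1 IP replicate 2, at 0.57 (edgeR FDR = 0.0795) and 0.54 (edgeR FDR = 0.0584). ASNS, at 125 to 167 CPM in total and 55.3 to 99.8 CPM in eIF4A1-bound RNA, changed by -0.95 (edgeR FDR = 0.0076). PSAT1, at 212 to 245 and 102 to 164 CPM, changed by -0.89 (edgeR FDR = 0.00307), and neither enzyme overlapped between the groups.

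With DDX6, 6 members were called, 4 higher and 2 lower, beside 22.7% of genes called higher and 23.3% lower. TRIB3 changed by 0.78 (edgeR FDR = 0.00664), DDIT3 by 0.90 (edgeR FDR = 0.00771), ASNS by -0.97 (edgeR FDR = 0.00768) and PSAT1 by -0.65 (edgeR FDR = 0.0219). The PSAT1 call was lost in 3 of 6 fits that left out 1 library, at -0.59 (edgeR FDR = 0.0666) without RIP total RNA replicate 3, -0.58 (edgeR FDR = 0.0736) without DDX6 IP replicate 1 and -0.54 (edgeR FDR = 0.0883) without DDX6 IP replicate 2. With eIF4A2, 3 members were called, 2 higher and 1 lower, beside 24.5% and 25.8%. PSAT1 changed by -1.10 (edgeR FDR = 0.000751), while TRIB3 at 0.50 (edgeR FDR = 0.054), ASNS at -0.59 (edgeR FDR = 0.0691) and DDIT3 at 0.42 (edgeR FDR = 0.165) missed the threshold. Without eIF4A2 IP replicate 3, 6 members were called beside 47.2% of genes, adding ASNS at -0.85 (edgeR FDR = 0.0169), DDIT3 at 0.64 (edgeR FDR = 0.0282) and SESN2 at -0.46 (edgeR FDR = 0.0385).

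Same-numbered RIP libraries deviated together. With the replicate number as a block, 7 members were called with eIF4A1 beside 64.5% of genes and 7 with DDX6 beside 60.0%, in both cases adding CHAC1, at 0.77 (edgeR FDR = 0.0143) and 0.77 (edgeR FDR = 0.0164). With eIF4A2, 5 were called beside 62.4% of genes, adding ASNS at -0.63 (edgeR FDR = 0.000136) and TRIB3 at 0.52 (edgeR FDR = 0.000996). SESN2, at 76.4 to 85.7 CPM in total RNA, spanned 56.3 to 94.5 CPM over the 9 bound libraries, and DDIT4, at 57.6 to 68.9 CPM in total RNA, spanned 42.9 to 89.3 CPM. Both overlapped the total RNA on either side.

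**Figure D4:**
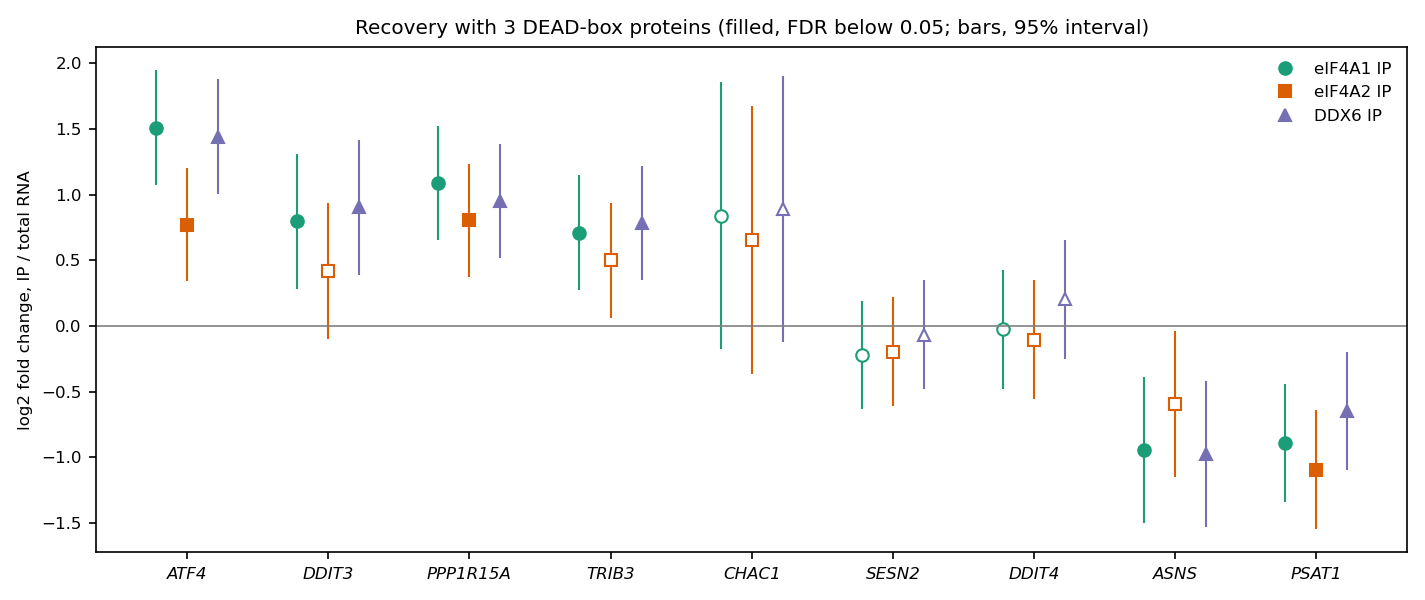
Log2 fold change of eIF4A1-, eIF4A2- and DDX6-bound RNA over total RNA for the 9 mRNAs (y axis, with 95% intervals); filled symbols mark an edgeR FDR under 0.05. ATF4 and PPP1R15A are above 0 with each protein, PSAT1 is below 0 with each, and the eIF4A2 value of ATF4, 0.77, lies below its eIF4A1 and DDX6 values of 1.51 and 1.44.

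The bound RNAs were also compared with each other directly. Shares of all genes at an unadjusted p under 0.05 or called by DESeq2 are not given here for these comparisons. ATF4 was lower in eIF4A2- than in DDX6-bound RNA, with a log2 fold change of -0.67 (95% interval -1.10 to -0.24, edgeR FDR = 0.0326), and was the only member called, beside 21.1% of genes. The 9 log2 differences ran from that value to 0.38. That call was lost in 4 of 6 fits that left out 1 library: without eIF4A2 IP replicate 1 at -0.65 (edgeR FDR = 0.0989), without eIF4A2 IP replicate 3 at -0.50 (edgeR FDR = 0.107), without DDX6 IP replicate 1 at -0.72 (edgeR FDR = 0.0545) and without DDX6 IP replicate 2 at -0.52 (edgeR FDR = 0.13). With the replicate block 4 members were called beside 40.5% of genes: ATF4 at -0.68 (edgeR FDR = 0.00181), PSAT1 at -0.45 (edgeR FDR = 0.00697), DDIT3 at -0.52 (edgeR FDR = 0.0368) and ASNS at 0.37 (edgeR FDR = 0.0131). Between eIF4A2 and eIF4A1, 0 members were called beside 1.06% of genes, with 1 member at an unadjusted p under 0.05 and 1 called by DESeq2, and the log2 differences ran from -0.74 to 0.35. ATF4 differed there by -0.74 (95% interval -1.17 to -0.31, edgeR FDR = 0.103), and the replicate block called ATF4 at -0.75 (edgeR FDR = 0.00544) and ASNS at 0.35 (edgeR FDR = 0.0368), beside 15.8% of genes. Between DDX6 and eIF4A1, 0 members were called by edgeR or DESeq2 beside 0.0916% of genes, 0 had an unadjusted p under 0.05, and the log2 differences ran from -0.13 to 0.25.

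The knockdown of TNRC6A and TNRC6B, the scaffolds that link Argonaute to CCR4-NOT, was compared in 2 libraries against 2. TNRC6A was at 178 and 189 CPM in control siRNA and 40.5 and 64.7 CPM after TNRC6A/B siRNA. In this design edgeR called 0 of the 9 mRNAs and 0.0% of 14064 genes. At an unadjusted p under 0.05 it found 0 members and 289 genes, and DESeq2 called 0 members and 8 genes. ATF4 was at 502 and 425 CPM against 360 and 394 CPM, lower in both pairs, and TRIB3 was at 7.72 and 7.56 CPM against 7.30 and 7.17 CPM. CHAC1, at 0.72 and 0.56 CPM against 0.57 and 1.08 CPM, and DDIT3, at 4.20 and 5.62 CPM against 3.00 and 5.69 CPM, overlapped between the groups. ASNS differed between the controls themselves, at 107 and 231 CPM against 85.8 and 147 CPM, and PSAT1 likewise, at 149.9 and 276 CPM against 133 and 191 CPM. PPP1R15A was at 34.8 and 31.0 CPM against 27.2 and 27.7 CPM, DDIT4 at 15.0 and 17.6 CPM against 11.4 and 16.2 CPM, and SESN2 at 72 and 41.6 CPM against 61.9 and 53 CPM. Of these 5, the groups of PPP1R15A did not overlap, and its log2 fold change was -0.26 (95% interval -0.85 to 0.33). With 2 libraries in each group a lack of overlap is weak information, and its share over all genes is not given here.

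Further genes of the pathway, from lists of textbook targets, are given for the input to place the 9. Of 48 further ATF4 targets 47 were tested, and 5 rose, 3 fell and 39 were not called after CNOT1 siRNA, beside the 13.4% of all genes called higher and 15.6% called lower, with a median log2 fold change of 0.14. Without the polysomal libraries labelled 3 in the shared estimate, 12 rose and 6 fell, beside 19.6% and 21.1% of all genes. Those that rose included CEBPB, a bZIP partner of ATF4, by 1.32 (edgeR FDR = 0.00779), and SLC3A2, the heavy chain of amino acid exchangers, by 0.53. FGF21, a secreted stress hormone, rose by 3.46 (edgeR FDR = 0.0269) on low counts and had 2, 1, 5 and 2 counts in the control libraries and 10, 7, 65 and 49 after CNOT1 siRNA. By function, amino acid synthesis had 0 higher and 1 lower of 10 (PHGDH, the entry enzyme of serine synthesis, -0.50), amino acid transport 1 higher and 0 lower of 8, tRNA charging 0 higher and 1 lower of 12 (XPOT, -0.35), transcription factors 1 higher and 0 lower of 6, and secreted, redox and other targets 3 higher and 1 lower of 11.

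The parallel pathways held calls in both directions, to be read beside 13.4% of all genes called higher and 15.6% lower. Of 21 genes of the eIF2 kinases, eIF2B and related factors, 1 rose and 4 fell, and of 15 targets of ATF6 and IRE1, 2 rose, among them DNAJB9 by 1.09 from 22.2 to 47.4 CPM, and 1 fell, HSP90B1 by 0.54 from 940 to 648 CPM. Of 14 p53 targets, a list that bears on SESN2 and DDIT4, which p53 also induces, 2 rose, among them BTG2 by 1.11, and 3 fell, among them TP53INP1, which fell by 1.32. Of 9 HIF targets, which bears on DDIT4, 1 rose (ANKRD37, 0.79) and 1 fell (PDK1, -0.51). Without both libraries labelled 3 these became 4 higher and 7 lower, 4 and 1, 5 and 4, and 2 and 1, respectively, beside 19.6% and 21.1% of all genes. In the interaction without both, 5 of the 47 further ATF4 targets had a higher change in polysomal than in subpolysomal RNA and 4 a lower one, beside 17.5% of all genes called in either direction, among them SLC3A2 at 0.75 and SLC7A5 at -0.92.

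Over the 24 gradient libraries, the genes whose log2 CPM was most like that of ATF4, among 9476 genes with a mean of at least 10 CPM, were TBC1D20 (Pearson r = 0.967), ZNF3 (r = 0.964) and PPAPDC1B (r = 0.961). For DDIT3 they were FBXO34 (r = 0.950), GTPBP2 (r = 0.942) and VEGFA (r = 0.941), and for ASNS they were TFPI (r = 0.931), TMEM245 (r = 0.920) and IARS (r = 0.919). These libraries fall into input, subpolysomal and polysomal groups, which all the points share, so the values are given as a description.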

How the data were processed

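RNA was extracted with TRIzol and sequenced from TruSeq stranded mRNA libraries of HEK293 cells. Per the submitters' processing notes, reads were handled with bcl2fastq 2.0, TopHat2 and HTSeq on hg19; the counting annotation, strand setting and versions of the last tools are not given in the sources used here. The deposited files hold raw read counts per gene symbol for 40 libraries, as the authors made them, with 0 rows that name no gene. Depth was 15353317 to 46018900 counts per library, and intervals cover the spread between libraries.

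Each experiment (12 RIP, 24 gradient and 4 TNRC6 libraries) was fitted on its own with edgeR 4.0.16 in R 4.3.3 (TMM scaling, filterByExpr, quasi-likelihood F-test, two-sided, Benjamini-Hochberg FDR over all genes tested, called under 0.05), so all groups of an experiment shared 1 estimate of the spread. DESeq2 1.42.0, its size factors, no filter on low counts, the compared libraries alone, the replicate number as a block and leaving out each library were alternatives. The code was tested on simulated data. Groups came from the labels. The replicate numbers were taken to pair libraries where deviations from the group means correlated over 0.1 in every pair: 0.127 to 0.587 in the input, 0.749 to 0.869 in subpolysomal RNA and 0.173 to 0.709 for the bound RNAs against total. The labels do not state a shared day or culture. For polysomal RNA between siRNAs (-0.558 to 0.109) they were not taken to pair. Nor were they for polysomal against subpolysomal RNA, at -0.633 to 0.171 in control siRNA and -0.31 to -0.251 in CNOT1 siRNA. Ratios within a gradient are thus matched by replicate number alone.

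The members and lists were chosen with earlier results of these data known. Values of all 9 members are given in each comparison with total RNA, between siRNAs and between fractions, and the bound RNAs are compared with each other on the members called and their range. Of the other lists, the genes named are those with the highest and lowest fold change among the called, and the likeness rule took the 3 genes with the highest Pearson r on log2 CPM. A pseudocount of 0.5 CPM was used for ratios within a gradient. Sequences and gene positions were read from the GRCh37 genome with GENCODE release 44 mapped to that build, 1-based, and their agreement with the annotation used for counting was not tested.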

Additional observations from a re-analysis of the deposited data

Results flagged for a closer look

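Over 60 groups of 4 gradient libraries (the 9 mRNAs and CNOT1 in 6 groups each), 12 held 1 library whose gap to its nearest neighbour exceeded Dixon's 95% critical value as a share of the range. That value flags about 1 in 20 independent groups of normally distributed values. These groups share libraries and were checked on CPM without logs, so the 12 cannot be set against that rate. Of the 12, 7 were the polysomal libraries labelled 3. The library labelled control siRNA polysomal replicate 3 stood apart at 14.8 CPM for DDIT3, 34.9 CPM for TRIB3, 20.5 CPM for CHAC1, 144.6 CPM for SESN2 and 64.3 CPM for DDIT4, the 5 mRNAs that were higher after CNOT1 siRNA in the input, and at 28.3 CPM for CNOT1. The library labelled CNOT1 siRNA polysomal replicate 3 stood apart at 631 CPM for CNOT1.

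The other 5 did not involve those libraries. DDIT3 stood apart at 24 CPM and PPP1R15A at 94.7 CPM in control siRNA subpolysomal replicate 4. PPP1R15A was also apart at 41.3 CPM in control siRNA input replicate 4 and at 51.9 CPM in CNOT1 siRNA polysomal replicate 4, so 3 of its 6 groups had replicate 4 as the outlying library. CHAC1 stood apart at 2.40 CPM in control siRNA input replicate 3.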

How the results depend on the processing

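Of 76 counts of members called under other settings 58 stayed within 1.5 times the main count, and of 579 member values 493 kept direction and side of the threshold, 48 gained a call, 5 lost one and 33 changed sign. In subpolysomal RNA the count after CNOT1 siRNA was 1, and 2 with DESeq2, 4 with no filter on low counts, 4 with the replicate block, 3 without both polysomal libraries labelled 3, 5 with the block and without both, and 3 with the compared libraries only. In polysomal RNA it was 0, and 4 without both libraries and 6 with the block and without both, although polysomal numbers were not taken to pair. The interaction had 0, and 2 with no filter (CHAC1 and TRIB3) and 1 (PSAT1, -0.57, edgeR FDR = 0.00816) with the block and without both. eIF4A2 against total RNA had 3, and 6 with no filter and 5 with the block; eIF4A2 against eIF4A1 had 0, and 1 with DESeq2, 1 with no filter and 2 with the block; eIF4A2 against DDX6 had 1, and 4 with the block and 0 with the compared libraries only. TNRC6A/B siRNA had 0, and 1 with the block (ASNS, -0.49, edgeR FDR = 0.0403), where 2 pairs cannot show that the numbers pair the libraries. Under the block the share of all genes called went from 1.06% to 15.8% for eIF4A2 against eIF4A1 and from 21.1% to 40.5% for eIF4A2 against DDX6. It was 62.4% for eIF4A2 against total RNA, beside 24.5% higher and 25.8% lower in the main fit. In subpolysomal RNA it was 34.5%, beside 13.0% higher and 19.1% lower. Shares for most other settings are not given in this section, so these counts cannot be read as gains of the members alone. The cause of these changes was not tested.

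Replicate numbers of polysomal libraries were not taken to pair, so block values that involve polysomal RNA are given only as alternatives. Polysomal log2 fold changes after CNOT1 siRNA changed sign under the block, without both libraries labelled 3, and under both together: DDIT3 to 0.10, 0.76 and 0.76, TRIB3 to 0.22, 0.85 and 0.82, CHAC1 to 0.88, 2.26 and 2.21, and DDIT4 to 0.11, 0.61 and 0.59. PSAT1 went to -0.021, -0.15 and -0.16, and to -0.031 with DESeq2 size factors, -0.031 with DESeq2 and -0.042 with no filter. PPP1R15A went to 0.054 without both and 0.033 with the block added. ASNS in subpolysomal RNA went to -0.00054 under the block, and DDIT4 with eIF4A1 to 0.014 with no filter. The interaction changed sign without both libraries, and with the block added, for DDIT3 to 0.42 and 0.46, PPP1R15A to 0.23 and 0.20, CHAC1 to 0.19 and 0.37, SESN2 to 0.39 and 0.41 and DDIT4 to 0.54 and 0.54, the last also to 0.055 under the block alone.

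Leaving out 1 library, also among those not labelled 3 (the latter chosen after seeing the data), gave 0 to 6 members called in the input, 0 to 4 in subpolysomal RNA, 0 to 3 in polysomal RNA, 0 to 1 in the interaction, 3 to 6 for eIF4A2 against total RNA and 0 to 2 for eIF4A2 against DDX6. Shares of all genes called in these fits are not given here, except the 47.2% for eIF4A2 against total RNA without eIF4A2 IP replicate 3. Values that changed sign ranged, after CNOT1 siRNA, from -0.23 to 0.10 for ASNS in the input; in subpolysomal RNA from -0.26 to 0.019 for PPP1R15A, -0.071 to 0.13 for ASNS and -0.12 to 0.21 for DDIT4; and in polysomal RNA from -0.25 to 0.88 for DDIT3, -0.25 to 0.96 for TRIB3, -0.35 to 0.17 for PPP1R15A, -0.32 to 0.18 for ASNS, -0.34 to 0.13 for PSAT1, -0.42 to 2.46 for CHAC1 and -0.21 to 0.71 for DDIT4. Polysomal against subpolysomal CHAC1 ranged from -0.079 to 2.59 in control and -0.24 to 1.22 in CNOT1 siRNA. Against total RNA, DDIT4 ranged from -0.093 to 0.042 with eIF4A1 and -0.39 to 0.078 with eIF4A2, CHAC1 from -0.13 to 0.96 with eIF4A2 and SESN2 from -0.20 to 0.027 with DDX6. The interaction ranged from -0.37 to 0.10 for ATF4, -0.59 to 0.64 for DDIT3, -0.20 to 0.34 for PPP1R15A, -0.35 to 0.14 for ASNS, -2.49 to 1.06 for CHAC1, -0.31 to 0.59 for SESN2 and -0.28 to 0.73 for DDIT4. After TNRC6A/B siRNA, ASNS ranged from -0.99 to 0.17, PSAT1 from -0.77 to 0.17, DDIT3 from -0.70 to 0.21, CHAC1 from -0.18 to 0.73 and SESN2 from -0.27 to 0.46, where a lone library left in a group is assumed to vary like the other group. Depth limits CHAC1, which lay at 0.64 to 2.40 CPM in control siRNA gradient libraries other than polysomal replicate 3.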

Other observations

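Among the further ATF4 targets, the tRNA charging genes, which supply aminoacyl-tRNAs for elongation, were mostly on the polysomal side of the gradient and lower in the bound RNAs. In control siRNA gradients 10 of 12 were higher in polysomal than in subpolysomal RNA and 0 were lower, beside 34.8% of genes called higher and 37.0% lower. Other lists lay on the same side there, with 7 of 10 amino acid synthesis genes, 6 of 8 amino acid transporters and 11 of 15 targets of ATF6 and IRE1 called higher and 0 of each called lower. Without both libraries labelled 3, tRNA charging had 11 of 12 higher and 0 lower. Amino acid synthesis then had 7 higher and 0 lower, transporters 6 and 0, and ATF6 and IRE1 targets 12 and 1, beside 33.7% and 38.4% of genes. In the RIP-Seq 0 of 12 tRNA charging genes were higher and 11 of 12 were lower in the RNA bound by eIF4A1, by eIF4A2 and by DDX6, at median log2 fold changes of -1.32, -1.28 and -1.04, beside 26.5%, 25.8% and 23.3% of genes called lower. Of the 15 targets of ATF6 and IRE1, 8, 10 and 8 were lower. The 3 comparisons share the total RNA libraries. ASNS and PSAT1 had the same signs in these libraries. Of the 6 transcription factors of the ATF4 list, 0 were higher and 2 lower in polysomal control RNA, also without both libraries labelled 3. In the RIP-Seq 4 of these factors were higher and 1 lower with eIF4A1, 1 and 1 with eIF4A2, and 2 and 0 with DDX6, beside 26.1%, 24.5% and 22.7% of genes called higher. The lists were not tested against each other.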
